A study of Homo sapiens with 9 samples.

Results

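FOXA1 and FOXA2 encode forkhead transcription factors, and the places bound by FOXA1 itself and by NKX2-1 around both genes are described here from chromatin immunoprecipitation sequencing (ChIP-seq) in lung adenocarcinoma cell lines. The peaks were taken from 2 windows of the human genome build hg18. The FOXA1 window ran from 36950000 to 37250000 on chromosome 14, in band 14q21.1, with the gene at roughly 37.129 to 37.134 Mb. The FOXA2 window ran from 22400000 to 22620000 on chromosome 20, in band 20p11.21, with the gene at roughly 22.51 to 22.513 Mb. Peaks with their midpoint in a window were taken, which gave 45 of the 125904 peaks of all 5 lists, 28 around FOXA1 and 17 around FOXA2. The lists came from H3122 with an antibody against FOXA1, from H3122 with an antibody against NKX2-1 in 2 libraries called replicates 2 and 1, and from H1819 and H2087 with the same NKX2-1 antibody. All 3 are established lung adenocarcinoma lines in which, per the labels, NKX2-1 is amplified, and no treatment is given. FOXA1 binding was mapped in H3122 only, and NKX2-1 binding in H1819 and H2087 rests on 1 list each. Whether the H3122 NKX2-1 libraries stem from different cultures is not stated, and differences between them may therefore be technical.

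FOXA1 and FOXA2 are pioneer factors of the endoderm: their winged-helix domain binds forkhead sites in closed chromatin, and both are expressed in the lung epithelium, where they act in part redundantly in branching and in the maturation of airway and alveolar cells. NKX2-1, also known as TTF-1, is a homeodomain factor that marks the lung and thyroid lineages and acts with FOXA factors at genes of alveolar type 2 cells. Transcription factors of this kind often bind near their own genes and near each other's. In the RefSeq gene table of GRCh38.p14, the nearest protein-coding genes beside FOXA1 were MIPOL1 and TTC6, and the genes next to FOXA2 were the long non-coding RNAs LINC00261 and LNCNEF.

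The promoter sequence of FOXA1 is shown because NKX2-1 had a peak over the start of the gene in H3122 replicate 2. The sequence comes from RefSeq (GRCh38.p14, chr14:37595250-37595499, minus strand) and holds the 250 bases before the start, 5′ to 3′, with motif matches in capitals. FOXA2 had no match in the same table.

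FOXA1 promoter: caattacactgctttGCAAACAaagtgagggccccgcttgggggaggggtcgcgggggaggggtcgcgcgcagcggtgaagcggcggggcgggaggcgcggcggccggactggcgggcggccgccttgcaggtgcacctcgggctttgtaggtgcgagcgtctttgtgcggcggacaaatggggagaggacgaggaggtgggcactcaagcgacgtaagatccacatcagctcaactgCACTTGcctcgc

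The motifs searched, on both strands, were CACTTG as a core of NKX2-1 sites and TGTTTAC and TGTTTGC as forkhead cores. Other forms of these sites were not searched, so the capitals need not mark every possible site. None of the matches overlapped another. CACTTG lay 12 to 7 bases before the start, and this motif was in 9.59% of 27305 such promoter windows. TGTTTGC lay on the opposite strand, read as GCAAACA in the printed sequence, 235 to 229 bases before the start, and was in 3.19% of the windows. TGTTTAC had no match in the FOXA1 window and was in 2.98% of all windows. The FOXA1 sequence had a GC content of 67.2%, against a median of 58.0% over all windows, and 26 CpG dinucleotides, against a median of 11.

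FOXA1 bound around its own gene in H3122, mostly on the side of lower coordinates, which is downstream because FOXA1 lies on the minus strand in the RefSeq table. The H3122 FOXA1 list held 12 peaks in the FOXA1 window, 10 below the gene, 0 in it and 2 above it. The window reaches 179 kb below the gene and 116 kb above it, and within 116 kb on each side the split was 7 below and 2 above. Distances are those of peak midpoints from the nearer end of the gene. Scores are given as deposited, on the scale of the peak caller, and are compared only within a list. The strongest of the 12 had a score of 3100, a value at which many peaks tie, and lay 43.1 kb below the gene. Of the 42437 FOXA1 peaks in the list, 122 had this score, itself included, and 15 a higher one. What the tie means is not stated, so the order among these top peaks is uncertain. Of the 12 peaks, 8 scored above the median of the list.

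The peaks nearest to the gene were weaker. A pair of FOXA1 peaks separated by 30 bp lay just past the downstream end, from 37127481 to 37128050 with a score of 302 and from 37126839 to 37127450 with a score of 190.3, 1.2 and 1.9 kb from the gene. Another, with a score of 85.8, lay 6.3 kb below. No FOXA1 peak lay over the start of FOXA1, and the nearest on the upstream side was 46.3 kb away.

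NKX2-1 was found at the start of FOXA1 in H3122 replicate 2 only. This is the longest NKX2-1 list, with 48071 peaks, against 7469 in replicate 1, 13486 in H1819 and 14441 in H2087. Whether the lack of a peak there in the other lists reflects their length was not tested. The replicate 2 peak at the start ran from 37133744 to 37135687 with a score of 187.6, higher than 63.1% of its list. It had no FOXA1 peak in it. It was 1944 bp wide, wider than 99.4% of all replicate 2 peaks. Among the 3691 replicate 2 peaks with scores within 10% of its own, the median width was 704 bp. H2087 had 2 peaks close to this one that did not overlap it. The first, from 37131478 to 37131885 with a score of 123.2, lay inside the gene, and the other, from 37137778 to 37138079 with a score of 63.5, lay 3.9 kb upstream. These were the only H2087 peaks of the window, neither was shared with another list, and both scored below the median of H2087. The nearest peaks of H1819 and H3122 replicate 1 were 39.3 and 43.0 kb from the gene. The position of the gene is known here only to the nearest kb, which limits how exactly a peak can be placed on its start.

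**Figure D1:**
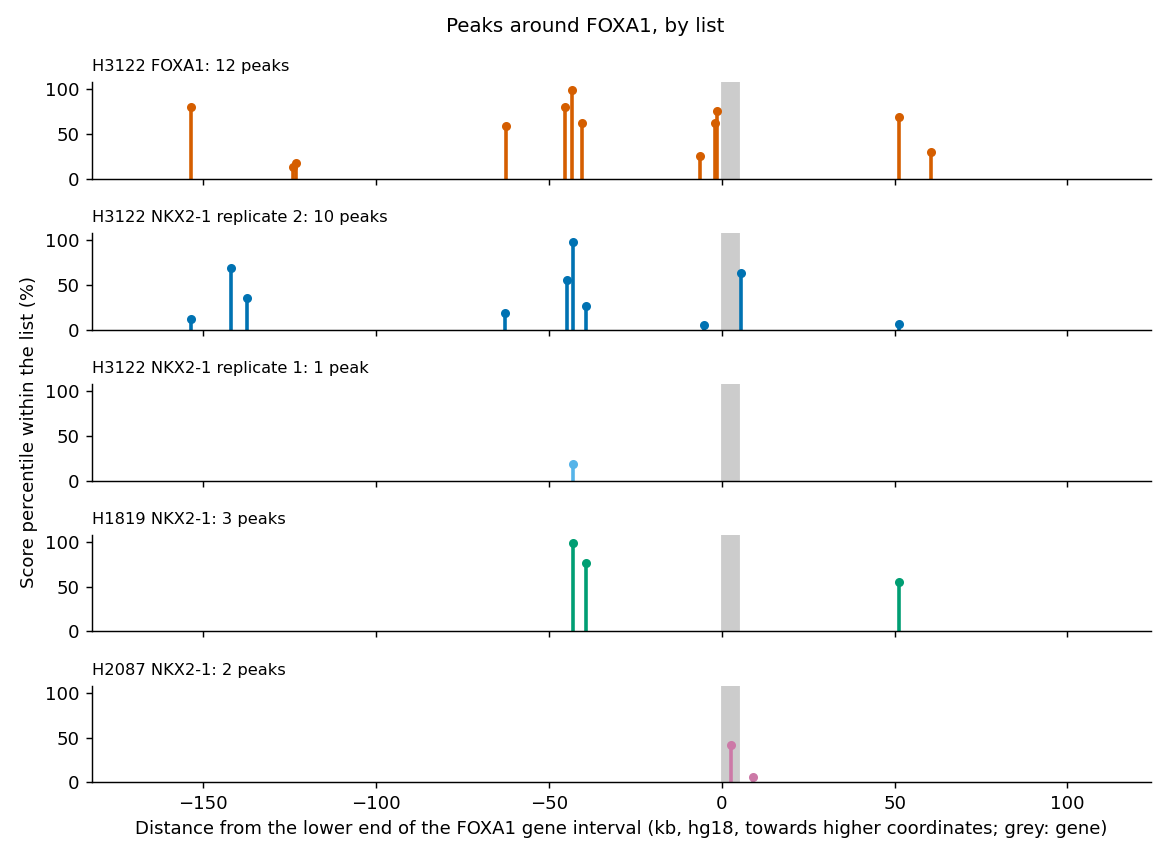
Peaks of each list in the FOXA1 window, by distance of the peak midpoint from the lower end of the gene interval in kb (x axis) and by the percentile of the score within its own list (y axis); the grey band is the gene. H3122 FOXA1, H3122 NKX2-1 replicate 2 and H1819 have their highest peak at the same place 43 kb below the gene, while the 2 H2087 peaks lie in and just above the gene.

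The place bound most strongly was the region 43.1 kb downstream of FOXA1, on chromosome 14 from 37085152 to 37086600. It had a peak in each list but that of H2087. Its score was 3100 for FOXA1, 1381 for NKX2-1 in H3122 replicate 2, 59.5 in replicate 1 and 1403 in H1819. These values were higher than 99.7%, 98.3%, 18.4% and 98.9% of the peaks of the same lists. It was thus among the strongest peaks of 3 lists and one of the weak ones of replicate 1. The midpoints of the 4 peaks lay within 125.5 bp of each other. The interval common to them ran from 37085869 to 37086134, a length of 266 bp. It is the replicate 1 peak itself, which lies wholly inside the peaks of the other 3 lists. The H2087 peak nearest to the region was 44.9 kb away, inside FOXA1.

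A missing H2087 peak at such a place was not rare in these lists. Along the genome, 40 regions had a FOXA1 peak and scores in H3122 replicate 2 and in H1819 at least as high as this one, itself included. Of these, 25 had an H2087 peak, or 62.5%. The region near FOXA1 sets the lower limit of the scores in this set.

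Around this region lay further peaks. FOXA1 had a peak from 37083207 to 37084498 with a score of 363, which met an NKX2-1 replicate 2 peak with a score of 156.4. On the other side FOXA1 had a peak with a score of 192.4 from 37088558 to 37088978. A region without FOXA1 followed from 37089345 to 37090076, where NKX2-1 had a score of 87.8 in H3122 replicate 2 and 249.6 in H1819. The FOXA1 peak before it ended 366 bp from the H1819 peak and 482 bp from the replicate 2 peak. In all, 4 regions thus lay 39.3 to 45.1 kb downstream of FOXA1, and H1819 had a peak in 2 of them.

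The remaining place near FOXA1 bound by NKX2-1 in 2 lines lay 46.3 kb upstream, from 37180048 to 37180630. Its scores were 241 for FOXA1, 64.7 in H3122 replicate 2 and 139.5 in H1819. H3122 scored low there and H1819 above the median of its list. With this one, all 3 H1819 peaks of the FOXA1 window overlapped a replicate 2 peak.

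Further peaks lay farther from the gene on the downstream side. At 153.3 kb, FOXA1 had a score of 369.6 and NKX2-1 replicate 2 one of 70.7 in the same region. At 62.5 kb the scores were 171 for FOXA1 and 77.9 for replicate 2. NKX2-1 replicate 2 had peaks without FOXA1 at 141.9 kb, with a score of 222.7, and at 137.3 kb, with one of 102.8. The first was the highest replicate 2 peak without FOXA1 in the window. A weak pair of FOXA1 peaks lay at 123.9 and 123.2 kb, separated by 230 bp, with scores of 70.9 and 76.1. A weak replicate 2 peak with a score of 63.8 lay 5.0 kb below the gene, 348 bp from the nearest FOXA1 peak. Upstream, the last FOXA1 peak of the window lay 55.5 kb from the gene with a score of 92.5.

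FOXA1 bound on both sides of FOXA2 in H3122. The H3122 FOXA1 list held 10 peaks in the FOXA2 window, 3 below the gene, 0 in it and 7 above it. NKX2-1 had 5 peaks in H3122 replicate 2 and 2 in H1819, and 0 in replicate 1 and in H2087. The FOXA1 peak nearest to FOXA2 ran from 22513643 to 22514548, 1.1 kb from the gene on the side of higher coordinates, with a score of 200.04. That side is upstream, as FOXA2 is known to lie on the minus strand. No NKX2-1 list had a peak there, and the nearest replicate 2 peak was 25318 bp away. FOXA2 thus had a FOXA1 peak and no NKX2-1 peak beside its upstream end. FOXA1 had no FOXA1 peak over its start, and an NKX2-1 peak there in H3122 replicate 2 only.

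The strongest FOXA1 peaks of the FOXA2 window lay on the side of lower coordinates. The highest was at 68.8 kb, from 22440803 to 22441617, with a score of 711, higher than 91.1% of the list; no NKX2-1 list had a peak there. It was also the highest FOXA1 peak without NKX2-1 in both windows. The next was at 57.5 kb, from 22452077 to 22452932, with a score of 505 for FOXA1 and 92.8 for NKX2-1 replicate 2. A region from 22399939 to 22400636 reached over the border of the window, with scores of 311 for FOXA1 and 267.3 for replicate 2.

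Only 1 region of the FOXA2 window had NKX2-1 in 2 lines. It lay 24.5 kb below the gene, from 22485201 to 22485812, with scores of 116.1 in H3122 replicate 2 and 408 in H1819, and without FOXA1. The H1819 score was higher than 88.1% of its list and the replicate 2 score higher than 41.7%. The other H1819 peak lay 6.3 kb below the gene, from 22503534 to 22503840, with a score of 95.3, and no other list shared it.

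On the side of higher coordinates FOXA1 and NKX2-1 replicate 2 shared 2 regions. At 27.3 kb the scores were 167.7 for FOXA1 and 167.8 for replicate 2. At 32.9 kb they were 66.2 and 99.99. FOXA1 alone had peaks at 17.2 kb with a score of 136.8 and at 36.1 kb with one of 138.7. A pair separated by 151 bp lay at 104.4 and 105.1 kb, with scores of 149.1 and 85.4.

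H2087 had its nearest peak to FOXA2 116.4 kb above the gene, just outside the window, from 22628939 to 22629801 with a score of 362. Replicate 1 had its nearest 117.7 kb below, with a score of 55.5. Among the 11531 windows of this size with a peak in at least 1 list, those without one were common in both, at 54.9% for H2087 and 58.9% for replicate 1.

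**Figure D2:**
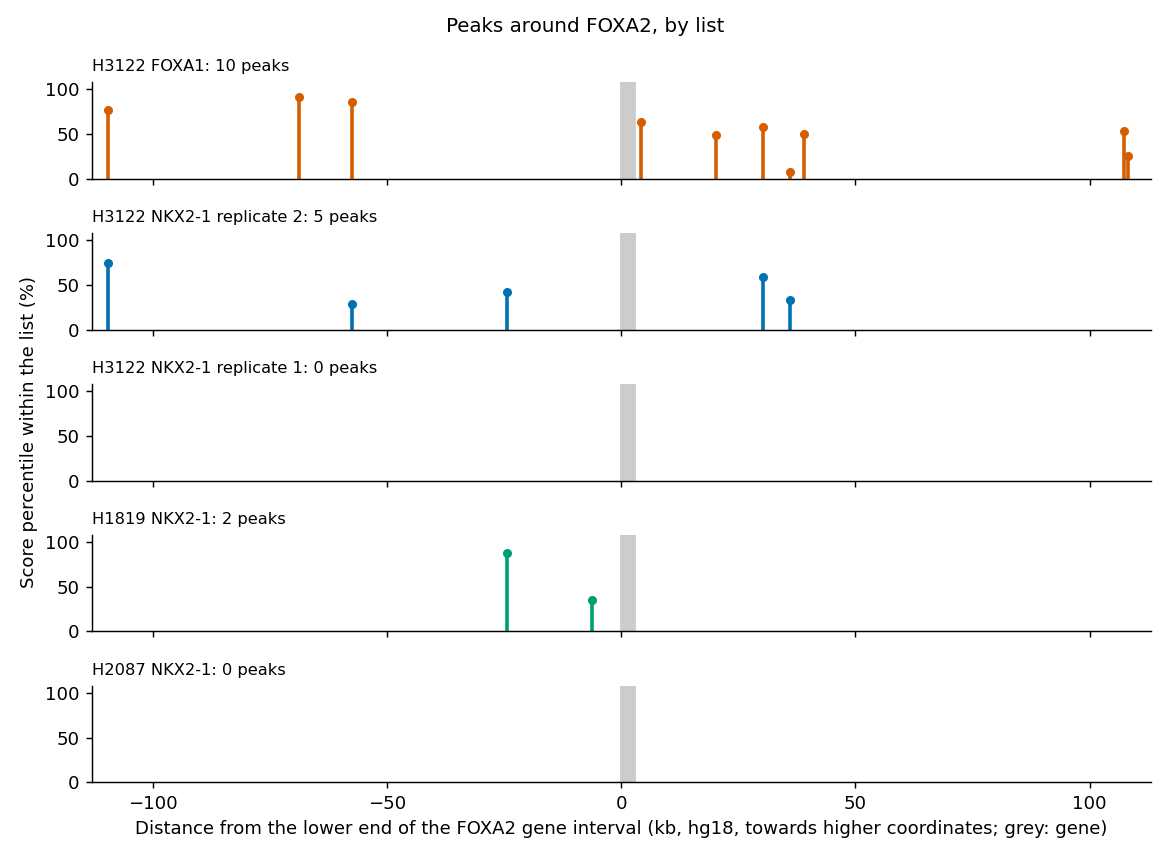
Peaks of each list in the FOXA2 window, by distance of the peak midpoint from the lower end of the gene interval in kb (x axis) and by the percentile of the score within its own list (y axis); the grey band is the gene. The 10 FOXA1 peaks lie on both sides, and the H3122 replicate 1 and H2087 lists hold 0 peaks.

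Merged where they overlapped by at least 1 bp, the peaks of all lists formed 31 regions, 19 around FOXA1 and 12 around FOXA2. At 1 bp, FOXA1 without NKX2-1 was the most frequent kind, in 13 of the 31 or 41.9%, against 23.7% of the 77808 regions of the genome. FOXA1 with NKX2-1 in H3122 alone was found in 7, or 22.6%, against 20.8% of all regions. NKX2-1 in H3122 alone without FOXA1 was found in 4, or 12.9%, against 24.4% of all regions. NKX2-1 was present in H3122 and another line in 4 regions, 2 with FOXA1 and 2 without, and the other line was H1819 each time. Each of these 2 kinds made up 6.45% of the 31, against 8.33% (with FOXA1) and 9.24% (without) of all regions. NKX2-1 in another line alone, without FOXA1, was found in 3 regions, 2 of H2087 and 1 of H1819. That was 9.68%, against 12.6% of all regions. Without replicate 2, 1 region had NKX2-1 in 2 lines and 1 had FOXA1 with NKX2-1 in H3122. The kinds with NKX2-1 in H3122 thus rest mostly on that list, the longest of the NKX2-1 lists. When peaks within 500 bp were merged, 26 regions remained and the order turned round: 8 had FOXA1 without NKX2-1 and 11 had FOXA1 with NKX2-1 in H3122, with or without another line. At 1 bp these numbers were 13 and 9. Shares over all regions were not worked out at 500 bp, so whether this turn is particular to these loci was not tested.

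**Figure D3:**
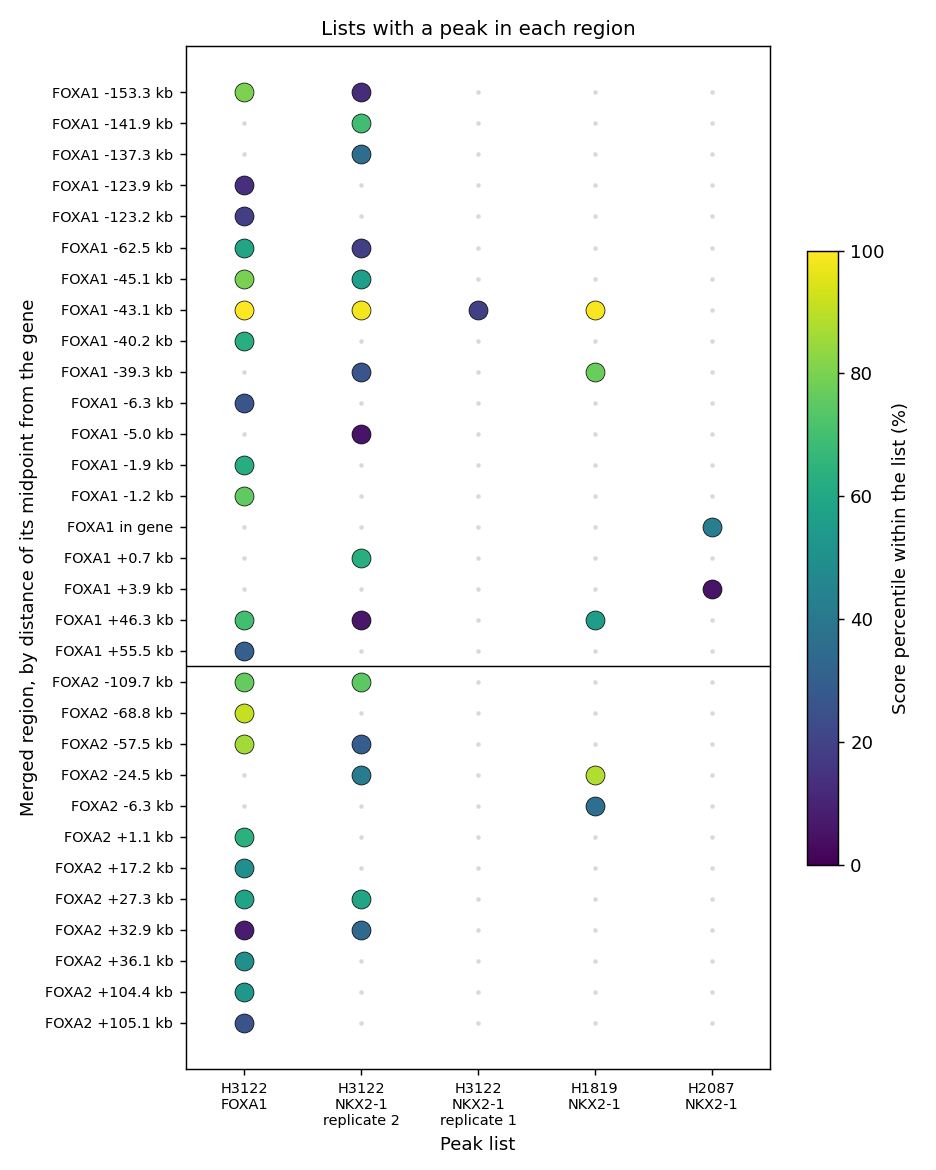
Each row is a merged region, placed by the distance of its midpoint from the gene in kb, and each column a peak list; a filled circle marks a peak, coloured by the percentile of its score within its list. Of 31 regions, 4 have NKX2-1 peaks in 2 lines, and the region at -43.1 kb of FOXA1 is the one with peaks in 4 lists.

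In H3122, the sharing of FOXA1 and NKX2-1 around the genes was near that of the whole lists. Of the 22 FOXA1 peaks, 9 overlapped a replicate 2 NKX2-1 peak, a share of 40.9% (exact 95% interval 20.7 to 63.6), against 54.5% of all FOXA1 peaks. Of the 15 replicate 2 peaks, 9 overlapped a FOXA1 peak, or 60% (32.3 to 83.7), against 47.8% of all replicate 2 peaks. Both intervals include the share of the whole list, and intervals cover counting error only. Among the 13 FOXA1 peaks without an overlapping replicate 2 peak, 2 had one within 1000 bp, against 12.4% of all such FOXA1 peaks. The 9 shared FOXA1 peaks had a median score of 311 and the 13 others one of 138.7, against 207 and 99.7 in the whole list. The 9 shared replicate 2 peaks had a median score of 99.99 and the 6 others one of 109.5, against 197.4 and 107.8 in the whole list. With both windows pooled, shared FOXA1 peaks thus had the higher median, while shared replicate 2 peaks did not. The scores overlapped in both lists. Shared FOXA1 peaks ran from 66.2 to 3100 and the others from 70.9 to 711. Shared replicate 2 peaks ran from 64.7 to 1381 and the others from 63.8 to 222.7. In the FOXA2 window the only unshared replicate 2 peak scored 116.1, within the range of the shared ones, 92.8 to 267.3.

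Between lines, H1819 peaks overlapped H3122 replicate 2 peaks at 3 of 3 places around FOXA1 and 1 of 2 around FOXA2. H2087 peaks overlapped 0 of 2 around FOXA1. With 0 H2087 peaks in the FOXA2 window, no overlap could be seen there. Of the 5 H1819 peaks, 4 overlapped a replicate 2 peak, or 80.0% (28.4 to 99.5), against 53.4% of all H1819 peaks. An H3122 FOXA1 peak was at 2 of the 5, against 28.7% of all H1819 peaks. Of the 2 H2087 peaks, 0 overlapped a replicate 2 peak, an interval of up to 84.2%, against 67.7% of all H2087 peaks. Seen from H3122, 4 of the 15 replicate 2 peaks had an H1819 peak, or 26.7% (7.79 to 55.1), against 14.7% of the list. An H2087 peak was at 0 of the 15, an interval of up to 21.8%, against 20.0% of the list. Each of these intervals includes the share of the whole list.

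The windows were denser in FOXA1 peaks than the mean of the genome. The H3122 FOXA1 density was 2.90 times the list's mean in the FOXA1 window (exact 95% interval 1.501 to 5.07) and 3.30 times in the FOXA2 window (1.58 to 6.07). As many FOXA1 peaks or more were found in 6.37% of 8759 windows of 300 kb and in 5.89% of 11531 windows of 220 kb. NKX2-1 replicate 2 reached 2.14 times its mean around FOXA1 (1.02 to 3.93) and 1.46 times around FOXA2 (0.473 to 3.40). H1819 reached 2.28 times (0.471 to 6.68) and 2.08 times (0.252 to 7.50). As many replicate 2 peaks or more were found in 16.5% and 36.6% of windows of the same sizes, and as many H1819 peaks or more in 22.5% and 28.2%. In replicate 1 and H2087 the ratios around FOXA1 were 1.37 and 1.42, with intervals that include 1. All these intervals treat peaks as falling independently of each other. Peaks cluster, with up to 37 FOXA1 peaks in a window of 300 kb against a median of 4, so the intervals are too narrow. When only its 7469 highest-scoring peaks were kept, the H3122 FOXA1 list had 1 peak in the FOXA1 window, or 1.37 times the mean, and 2 in the FOXA2 window, or 3.75 times. At 2 times the width, the replicate 2 density was 1.28 times the mean around FOXA1 and 3.64 times around FOXA2, and that of H1819 1.14 and 1.56 times, so the order of the loci turned round in both lists. Copy number was not measured, and NKX2-1, amplified per the labels, lies on the same chromosome as FOXA1. Whether extra copies reach the FOXA1 window, or bear on its counts and scores, was not tested.

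The neighbouring windows set these values in their surroundings. The FOXA1 window held 12 FOXA1 and 10 NKX2-1 replicate 2 peaks, against 12 and 7 in the next 300 kb below and 2 and 1 in the next 300 kb above. All 5 lists together had 28 peaks in the FOXA1 window, 21 below it and 3 above it. The FOXA2 window held 10 FOXA1 and 5 replicate 2 peaks, against 13 and 16 in the next 220 kb below and 6 and 9 in the next 220 kb above. Replicate 2 was thus sparser at FOXA2 than on either side, and its 4.66 times the mean just below was the highest ratio of any list in the FOXA1 and FOXA2 windows and those beside them. H2087 had 0 peaks in the FOXA2 window and 4 in the window above it. NKX2-1 replicate 2 had 10 peaks in the FOXA1 window, against 12, or 2.56 times its mean, one window further out below FOXA1. FOXA1 had 10 peaks in the FOXA2 window, against 10 one window further out above it. One window further out below FOXA2, all 5 lists had 0 peaks.

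**Figure D4:**
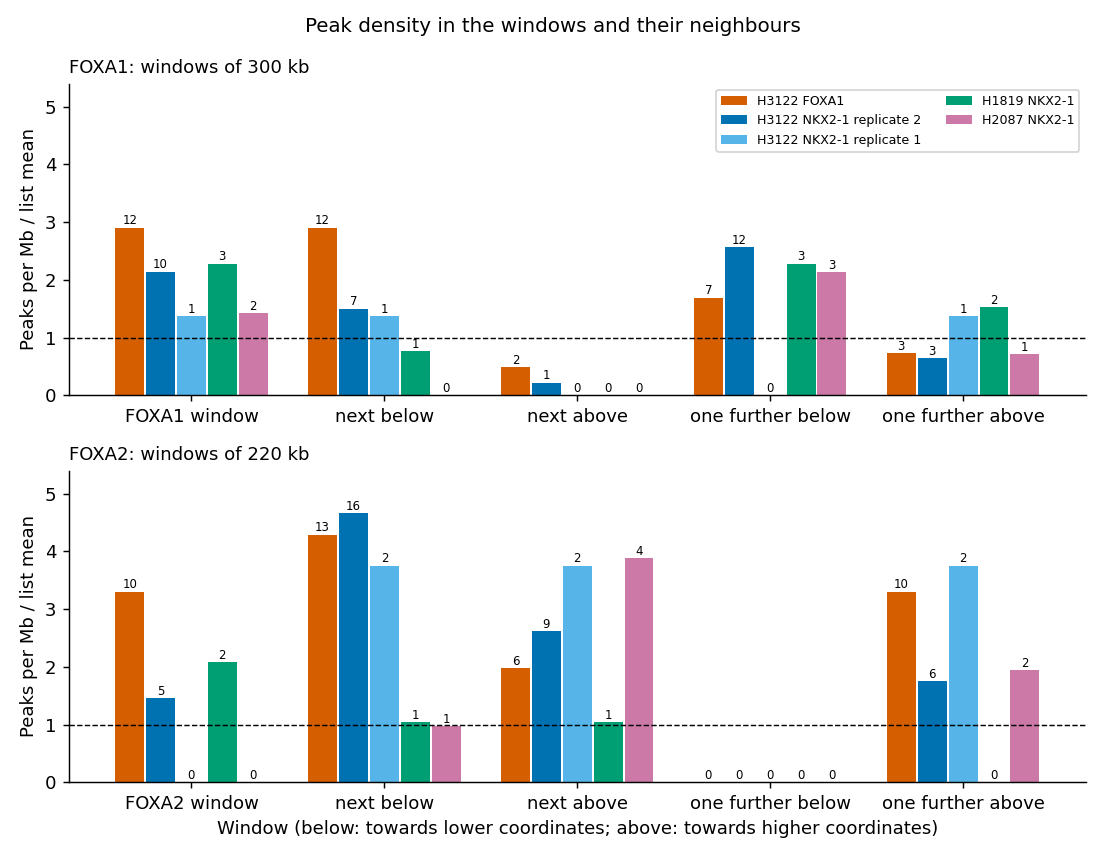
Peaks per Mb over the mean of the list (y axis, dashed line at 1) in the FOXA1 window (top, 300 kb) and the FOXA2 window (bottom, 220 kb) and in neighbouring windows of the same width; the number over each bar counts the peaks. The H3122 FOXA1 density is 2.90 at FOXA1 and 3.30 at FOXA2, and NKX2-1 replicate 2 stands at 1.46 at FOXA2 and at 4.66 in the window below it.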

How the data were processed

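Per the submitters' processing notes, Bowtie aligned the reads to hg18 and MACS 1.4.0 found the peaks. The authors deposited a position and a score for every peak, and the score was used only within a list; it is read as the scale of MACS, which no source used here states. The calling thresholds are not stated either, and the lowest scores were 50 in H3122 NKX2-1 replicate 1 and 60 in the other lists. Read depth is unknown, so counts of peaks cannot be compared between lists as amounts of binding. The 4 input libraries were not analysed here.

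Starts were made 1-based. Overlap meant at least 1 bp; exact intervals are Clopper-Pearson at 95%. Densities used hg18 chromosome lengths from circlize 0.4.16 in R 4.3.3, and windows without a peak in any list were left out of ranks. Python 3.11.15, pandas 2.3.3, numpy 2.4.6, scipy 1.17.1 and matplotlib 3.10.9 were used. Overlap and merging were checked on simulated peaks. No test was run, since peaks of 1 library are not replicates. The members, windows and named regions were chosen with earlier results of these data known: regions with NKX2-1 in at least 2 lines, those nearest a gene, and the highest-scoring of each kind, with the other regions added after their values were seen. Gene positions in hg18 are those of the rule, rounded to 1 kb, and promoter sequence came from GRCh38.p14. Sequence under the peaks was not used here.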

Additional observations from a re-analysis of the deposited data

How the results depend on the processing

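Peak counts in such small windows depended on the settings. At scores of at least 100, the FOXA1 window held 5 peaks of H3122 NKX2-1 replicate 2, 1 of H2087 and 0 of replicate 1, and the FOXA2 window 3 of replicate 2 and 1 of H1819. The replicate 1 peak was also lost at 60. With lists limited to their best 7469 peaks, the FOXA1 window held 1 FOXA1, 1 replicate 2 and 0 H2087 peaks, and the FOXA2 window 2 FOXA1, 0 replicate 2 and 1 H1819 peaks. The middle 50% of the windows held 7 FOXA1 and 6 replicate 2 peaks at FOXA1, and 5 and 3 at FOXA2. At 2 times the width, the FOXA2 window held 25 FOXA1, 25 replicate 2, 3 replicate 1 and 4 H2087 peaks, since its neighbours are dense. With the best 7469 peaks, 25% of H1819 peaks lay on replicate 2 and 100% of replicate 2 peaks on FOXA1, which rests on 1 peak. Regions with FOXA1 and H3122 NKX2-1 numbered 4, and those with NKX2-1 in at least 2 lines 2, at scores of at least 100. Merging peaks within 500 bp left 8 regions with FOXA1 and no NKX2-1, against 11 with FOXA1 and H3122 NKX2-1. The same counts were not made over all regions.

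Leaving out an H3122 NKX2-1 list gave 1 to 9 regions with FOXA1 and H3122 NKX2-1, 13 to 20 with FOXA1 and no NKX2-1, and 1 to 4 with NKX2-1 in at least 2 lines; the low, high and low values came without replicate 2. Of 140 alternatives, 107 stayed within the interval of the value, or within 1.5 times a count. Not all of the 107 were free to move, so the tally does not measure how stable the results are. Counts and densities of 0 cannot change under a score limit, a best-peaks limit or a narrower window. Only replicate 1 had scores below 60, and its best 7469 peaks are its whole list. Wide intervals also let large changes pass. The H1819 density around FOXA1 went from 2.28 to 4.12 with the best 7469 peaks and stayed inside its interval. The count of peaks wholly inside the windows was chosen after the data were seen. No paired analysis was possible because the labels tie no list of a group to a list of another. Of these groups, H3122 NKX2-1 is the one with 2 lists.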
